A study of Mus musculus with 2 samples.

Results

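Very GC-rich R-loop peaks are the DRIP-seq peaks of mouse neural stem/progenitor cells (NSPCs) whose sequence in the mm9 genome holds at least 60% G plus C among its known bases. Of the 22132 peaks in the deposited list, 1111 (5.02%) met this rule. The rule uses only the genome sequence under each peak, so that the G plus C content of these peaks is a definition and not a result. NSPCs were cultured from the frontal brains of C57BL/6 mice at postnatal day 7. The mapped cells had been exposed to aphidicolin, which inhibits DNA polymerases and causes mild replication stress, at 0.5 μM over 48 h. This treatment is given in the study's methods and not in the sample labels. In DRIP-seq, genomic DNA is cut with restriction enzymes (here EcoRI, HindIII, BsrGI, SspI and XbaI) and treated with RNase A, hybrids of RNA and DNA are pulled down with antibody S9.6, and their DNA is sequenced. The deposited list holds peak positions with no signal, score or read count, and the values of the input sample were not used here. The study obtained these peaks from several biological replicates with repeated DRIP reactions, but they were deposited as 1 list for 1 condition. No value below therefore has an error between replicates, and no test between conditions was possible. Shares are given with Wilson 95% intervals over peaks, windows or genes, which cover counting spread within this list only. DNA from many cells was recovered together, and a hybrid formed in few cells cannot be told apart from a shorter-lived one formed in many.

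R-loops are structures of an RNA:DNA hybrid and a displaced single strand of DNA, and they form mostly where nascent RNA pairs again with its template behind RNA polymerase. Hybrids with a G-rich RNA strand are especially stable, and a coding strand with more G than C, called GC skew, is a known feature of R-loop-forming promoters. In mammals such promoters are often CpG islands, which are GC-rich stretches that have kept the CpG dinucleotides lost from most of the genome and which mark the start sites of housekeeping genes and of many developmental regulators. Displaced G-rich strands with several short runs of G can fold into G-quadruplexes.

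The following stretches of 100 bp show the most frequent kind of sequence under these peaks, rich in CpG, and a rare repetitive kind. In the first stretches CpG is set in capitals. Shown are Rb1, the retinoblastoma tumor suppressor, whose peak had the largest ratio of observed to expected CpG among gene starts named here (mm9, minus strand, chr14:73725633-73725732, promoter), and 3 regulators of neural progenitors, namely Id4 (plus strand, chr13:48356326-48356425, promoter), Sox21 (minus strand, chr14:118634357-118634456, promoter and coding exon) and Zic5 (minus strand, chr14:122863509-122863608, coding exon). Each is the stretch of its peak with the most CpG outside untranslated regions, read on the coding strand.
Rb1: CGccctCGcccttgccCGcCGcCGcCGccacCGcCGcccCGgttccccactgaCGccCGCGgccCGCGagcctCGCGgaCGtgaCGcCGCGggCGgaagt
Id4: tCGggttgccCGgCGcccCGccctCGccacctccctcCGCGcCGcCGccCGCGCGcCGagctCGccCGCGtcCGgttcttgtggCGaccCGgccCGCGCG
Sox21: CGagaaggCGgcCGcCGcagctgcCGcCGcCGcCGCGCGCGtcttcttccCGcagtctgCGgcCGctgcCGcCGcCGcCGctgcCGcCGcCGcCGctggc
Zic5: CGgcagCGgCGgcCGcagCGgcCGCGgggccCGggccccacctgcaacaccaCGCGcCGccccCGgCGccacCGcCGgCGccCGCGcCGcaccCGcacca
These stretches, chosen for their CpG, held between 20 and 22 CpG dinucleotides each. The stretch of Sall1, a further regulator chosen in the same way and not shown, held 17. In each stretch shown, C exceeded G on the coding strand, with 32 G and 51 C in Rb1, 32 and 52 in Id4, 35 and 49 in Sox21 and 34 and 54 in Zic5. The whole peaks of these genes also held more C than G on the coding strand. Their skews on the plus strand, positive where G exceeds C, were 0.122 in Rb1, -0.0550 in Id4, 0.0501 in Sox21 and 0.111 in Zic5. These peaks differed from most members in genes of 1 strand, given below, in which G exceeded C on the coding strand.

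The rare kind, 43 of the 1111 members, consisted of short units in tandem, mostly with more G on 1 strand than on the other. These members were chosen for their extreme values. Shown are the members of at least 500 bp with the most and the next most G-quadruplex motifs per kb, both outside genes on the plus strand (mm9, chr5:129716752-129716851 and chr10:72312732-72312831), and an intronic peak of Dnaic1 without a CpG (minus strand, opposite to the gene, chr4:41535596-41535695). In these 3, runs of at least 3 G are in capitals. The last stretch comes from the peak with the largest CpG ratio among members of at least 500 bp, an alternating repeat on the plus strand (chr12:3357344-3357443, annotated as promoter), and has CpG in capitals.
Chromosome 5 repeat: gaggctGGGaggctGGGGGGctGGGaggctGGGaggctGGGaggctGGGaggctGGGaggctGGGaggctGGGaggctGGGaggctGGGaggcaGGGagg
Chromosome 10 repeat: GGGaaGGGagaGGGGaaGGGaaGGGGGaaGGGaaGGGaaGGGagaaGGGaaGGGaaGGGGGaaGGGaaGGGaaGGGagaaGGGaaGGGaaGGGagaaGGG
Dnaic1 intron: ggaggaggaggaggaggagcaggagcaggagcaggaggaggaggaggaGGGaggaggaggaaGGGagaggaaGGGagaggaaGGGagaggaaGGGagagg
Chromosome 12 repeat: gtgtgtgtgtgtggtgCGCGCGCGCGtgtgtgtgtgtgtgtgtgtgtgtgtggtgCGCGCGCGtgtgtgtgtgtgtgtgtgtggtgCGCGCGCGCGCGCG
The chromosome 5 stretch held 64 G and 12 C, with 12 runs of at least 3 G, and the chromosome 10 stretch held 63 G and 0 C, with 18 such runs. The Dnaic1 stretch held 62 G and 3 C. The chromosome 12 stretch, with 52 G and 16 C, held 16 CpG that lay within blocks of alternating C and G.

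Very GC-rich peaks formed the upper tail of a single broad distribution. The other peaks comprised 7900 peaks of 50 to 60%, 12149 of 40 to 50% and 972 under 40% G plus C. Among the members, the median was 63.5% (quartiles 61.4 and 66.5%) and the highest value was 78.5%. The number of members fell from 716 between 60 and 65% to 287 between 65 and 70%, 99 between 70 and 75% and 9 above 75%. The members just inside the limit were a peak over the starts of 1200016B10Rik and 1190005F20Rik, an intergenic peak of 225 bp on chromosome 5 and an intronic peak of Gnb5, all at exactly 60%. Just outside lay peaks at Gltscr1, Fgfrl1 and Tmem121, all at 59.99%. The limit therefore divides a continuum.

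**Figure D1:**
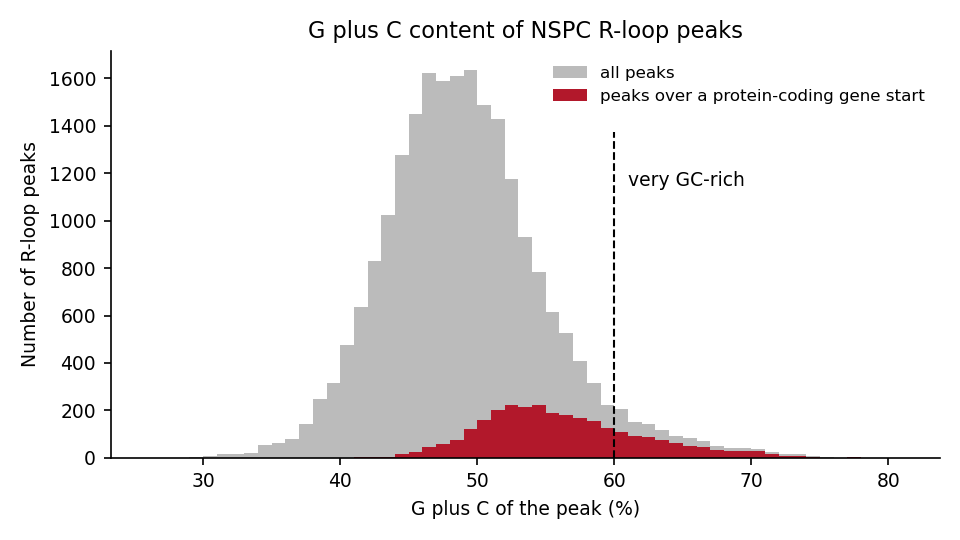
Number of R-loop peaks (vertical axis) by G plus C content of the peak in percent (horizontal axis, bars of 1 percentage point), for all 22132 peaks (grey) and for peaks over a protein-coding gene start (red, drawn in front). The dashed line marks 60%, and the 1111 very GC-rich peaks lie to its right, where 682 contain a gene start.

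Members were narrow in comparison with the class next to them, although width is not independent of the rule, since a wider peak takes in more of the flanks. Their median width was 1265 bp (quartiles 734 and 1915 bp), with a mean of 1.44 ± 0.962 kb (SD, n = 1111 peaks). Peaks of 50 to 60% G plus C had a median width of 1854 bp, those of 40 to 50% a median of 1146 bp and those under 40% a median of 642 bp. Within the members the median width was lower at higher G plus C, from a median of 1425.5 bp between 60 and 65% to 926 bp between 70 and 75%. The widest member, of 7.10 kb with 62.1% G plus C, covered the start of Pdgfa, which encodes a platelet-derived growth factor chain. The next widest covered the starts of Elfn1 (6.50 kb), which encodes a synaptic adhesion protein, Brd2 (6.31 kb), a bromodomain reader of acetylated histones, and Scrt1 (6.19 kb), a zinc finger repressor of the neuronal lineage, while the one of 6.34 kb in Gse1 held no protein-coding gene start. At the other end, 152 members were shorter than 500 bp.

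The GC-rich sequence ended close to the peaks. The mean G plus C of members was 68.6% at the midpoint, 48.7% at 1 kb from it, 44.7% at 2 kb and 44.4% at 5 kb. For peaks of 50 to 60%, the corresponding means were 54.4, 50.2, 48.4 and 47.8%. The values at the midpoint follow from the rule, whereas those beyond the peaks do not. Measured over 5 kb to each side of the peak, the flanks had a median G plus C of 44.3% for members and 48.2% for peaks of 50 to 60%. Within the members, this median was 43.3% for those with a gene start. It was 50.0% for the 145 members poor in CpG without a start, a group described below.

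**Figure D2:**
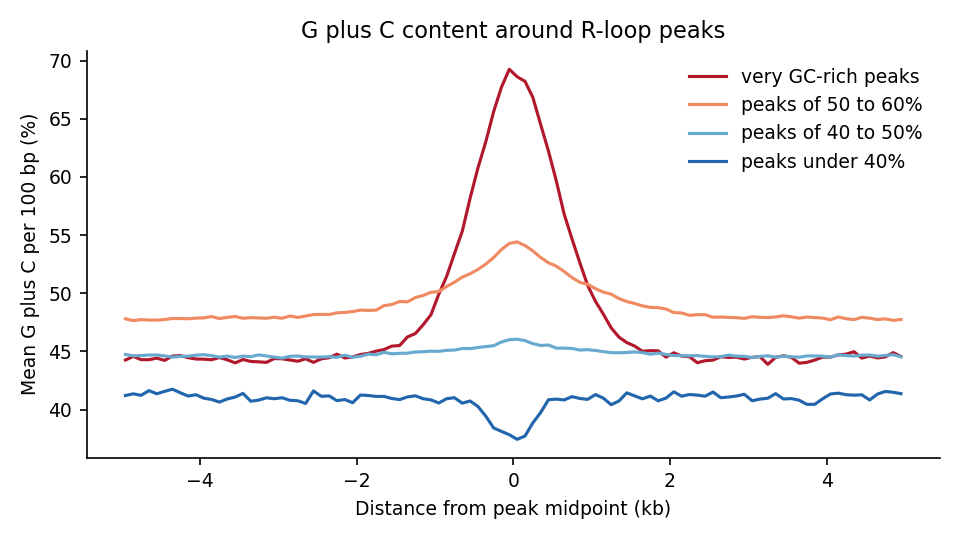
Mean G plus C content in percent per 100 bp (vertical axis) against distance from the peak midpoint in kb (horizontal axis), for the 4 classes of peaks by G plus C. The line of very GC-rich peaks falls from 68.6% at the midpoint to 44.7% at 2 kb, below the line of peaks of 50 to 60%, which is at 48.4% there.

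Most members lay over the start of a protein-coding gene. Of the 1111 members, 682 (61.4%, interval 58.5 to 64.2%) contained at least 1 annotated start, compared to 13% of all peaks. The share was 23.2% for peaks of 50 to 60%, 2.92% for peaks of 40 to 50% and 0.206% for peaks under 40%. A single start lay under 610 members, 2 starts under 69 and 3 starts under 3. Of the 72 members with more than 1 start, 69 held starts on both strands, as for the pair Pdgfa and 6330403L08Rik. Gene ends were rare, with 2.25% of members over the end of a protein-coding gene against 8.72% of all peaks and 14.0% of peaks of 50 to 60%. The share over gene ends was 4.68% when the ends of all annotated genes were counted and 7.83% within 1 kb.

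By the position of their midpoint, 52.6% of members (interval 49.6 to 55.5%) lay in a promoter, taken as 1 kb upstream to 100 bp downstream of any annotated transcript start, against 11.7% of all peaks. With 2 kb to each side of a start the share of members was 86.5%. A further 13.8% of member midpoints lay in exons, 4.05% in 5′-UTRs, 21.2% in introns, 3.51% at termination sites, 0.270% in 3′-UTRs and 4.68% between genes. Peaks of 50 to 60% had 18.2% of midpoints in promoters and 44.5% in introns.

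Around a gene start, members reached farther into the gene than away from it. For the 610 members with a single start, the median extent was 489 bp upstream and 946.5 bp downstream, and 470 (77.0%) were longer on the downstream side. In the 1556 peaks of 50 to 60% with a single start, the medians were 991 and 1737 bp, and 66.8% were longer downstream. The members thus began and ended closer to the start on both sides. These extents, like width, are not independent of the rule, since a wider peak takes in more of the flanks with lower G plus C.

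Members were divided into 3 groups, first by whether they contained a gene start and then by CpG content. The ratio of observed to expected CpG, which is 1 where CpG occurs as often as the C and G content predicts, had a median of 0.787 in members and 0.257 in peaks of 50 to 60%. It was at least 0.6, the usual limit for CpG islands, in 921 members (82.9%, interval 80.6 to 85.0%), compared to 9.38% of all peaks and 12.7% of peaks of 50 to 60%. The first group, the 682 members with a gene start, had a median ratio of 0.818, and 93.4% of them reached 0.6. The second group comprised 284 members that reached 0.6 without the annotated start of a protein-coding gene. Of these, 235 overlapped a protein-coding gene, 159 lay within 1 kb of a start and 91 held the start of another protein-coding transcript. The third group, 145 members below 0.6 without a start, had a median ratio of 0.336 and a median width of 636 bp, compared to 1535 bp for members with a start.

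The members with the most extreme composition included several promoters. Among members of at least 500 bp, the highest G plus C was 76.0% in an intron of Kdm3b, a histone demethylase gene, followed by 75.6% at Chd9 and Gm6658, 74.95% in an exon of Fgfbp3, 74.91% at the start of Map3k1, a stress-activated kinase, and 74.5% at the starts of Raly, an RNA-binding protein gene, and the agouti gene a. Map3k1 had the longest of these peaks, with 1.87 kb and 9 G-quadruplex motifs. The CpG ratio was 1.16 over the start of Rb1 and 1.11 over the start of Tle4, a transcriptional corepressor, where CpG was thus more frequent than base content predicts. Members with a ratio of 0 included peaks in introns of Dnaic1, an axonemal dynein gene, and Sema3d, an axon guidance ligand, and an intergenic peak of 882 bp on chromosome 7.

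Runs of G were common in members. A G-quadruplex motif, taken as 4 runs of at least 3 G separated by 1 to 7 bases on either strand, occurred in 68.0% of members (interval 65.3 to 70.7%), against 38% of all peaks and 55.7% of peaks of 50 to 60%. Per kb, members held 1.31 motifs, and the 3 other classes held 0.548, 0.215 and 0.0970 with falling G plus C. Since such motifs become more frequent with G plus C whether or not a peak is present, windows of 1 kb were compared. Of all windows of the genome, 15.9% held a motif. Of the windows with at least 60% G plus C, 73.3% of those under a peak (interval 71.8 to 74.8%) and 61.5% of those under no peak (60.5 to 62.5%) held one. The median G plus C of these windows was 64.5 and 63.0%, respectively. The difference was smaller within 1 kb of a gene start, with 75.7 and 72.0%, than farther away, with 66.97 and 48.52%, and the difference between these differences was not tested.

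The motifs near gene starts were unevenly divided between the strands. Downstream of the start within single-start members, the coding strand held 519 motifs (0.783 per kb) and the template strand 389 (0.587 per kb). Upstream, the coding strand held 205 (0.576 per kb) and the template strand 254 (0.714 per kb). The strand with more motifs thus changed at the start. The same change was present in peaks of 50 to 60% with a single start, which held 1708 motifs on the coding and 1255 on the template strand downstream, and 665 and 770 upstream.

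GC skew followed the same pattern. In members that overlapped genes of 1 strand only, G exceeded C on the coding strand in 607 of 923 (65.8%, interval 62.6 to 68.8%), which was close to the 62.6% of 5911 peaks of 50 to 60%. For the 757 starts under a member, the mean skew in the first 1 kb after the start, computed as (G - C)/(G + C) on the coding strand, was 0.0560 ± 0.0916 (SD over starts). To limit the part of base content in skew, protein-coding starts with at least 60% G plus C within 500 bp to each side were compared with each other. Their base content was still not equal. The median G plus C was 67.1% under a member, 64.7% under another peak and 64.2% under no peak. Among these, the mean skew of the first 1 kb was 0.0548 ± 0.0920 (SD) for 629 starts under a member, 0.0683 ± 0.105 for 1340 starts under another peak and 0.0369 ± 0.0905 for 4533 starts under no peak. Skew was positive at 73.3, 75.8 and 66.8% of these starts, respectively. The 3 groups overlapped widely, as each SD was larger than the differences between the means.

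The skew of starts under members also extended into the gene and reversed upstream. Averaged per 100 bp, it was highest at 0.0767 centred 1650 bp after the start and lowest at -0.0435 centred 250 bp before it. Starts under another peak had similar extremes, 0.0789 at 50 bp after and -0.0417 at 150 bp before the start. Starts under no peak reached 0.0575 at 50 bp and did not fall below -0.0106. Their skew also stayed positive into the gene, with 0.0500 centred 1650 bp and 0.0349 centred 2950 bp after the start. Positive skew into the gene was thus not particular to starts under members. Over the 1 kb upstream, the mean skew was -0.0226 for starts under a member, -0.0229 for starts under another peak and -0.00355 for starts under no peak.

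**Figure D3:**
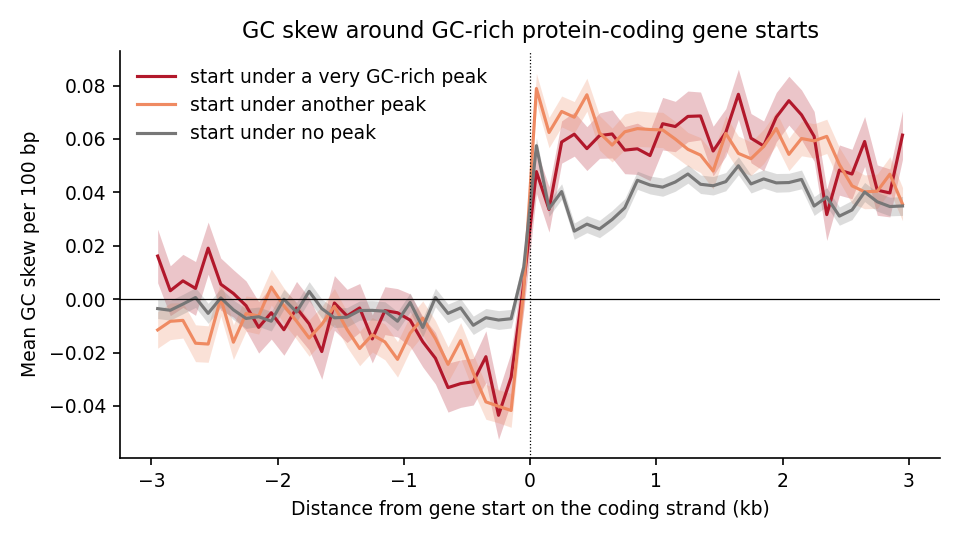
Mean GC skew on the coding strand per 100 bp (vertical axis) against distance from the gene start in kb (horizontal axis), for protein-coding starts with at least 60% G plus C that lie under a very GC-rich peak (n = 629), under another peak (n = 1340) or under no peak (n = 4533); shading is 1 SEM over starts. Downstream, the line of starts under very GC-rich peaks lies mostly above that of starts under no peak, and upstream it falls to -0.0435 at 250 bp before the start.

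GC-rich DNA was frequently, but not generally, under an R-loop peak. The genome held 11873 windows of 1 kb with at least 60% G plus C, or 0.464% of all windows, and 26.8% of them (interval 26.03 to 27.62%) had their midpoint in a peak, compared to 1.91% of all windows. The share rose with each step in G plus C, from 8.20% between 50 and 55% and 14.6% between 55 and 60% to 22.4% between 60 and 65%, 31.2% between 65 and 70% and 42.2% at 70% or more. Position and CpG content each went with a higher share. Among GC-rich windows, 32.4% of those within 1 kb of a gene start and 18.4% of those farther away were under a peak. With a CpG ratio of at least 0.6, the shares were 34.0% near starts and 23.0% away from them, and with a lower ratio they were 23.1 and 15.1%.

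**Figure D4:**
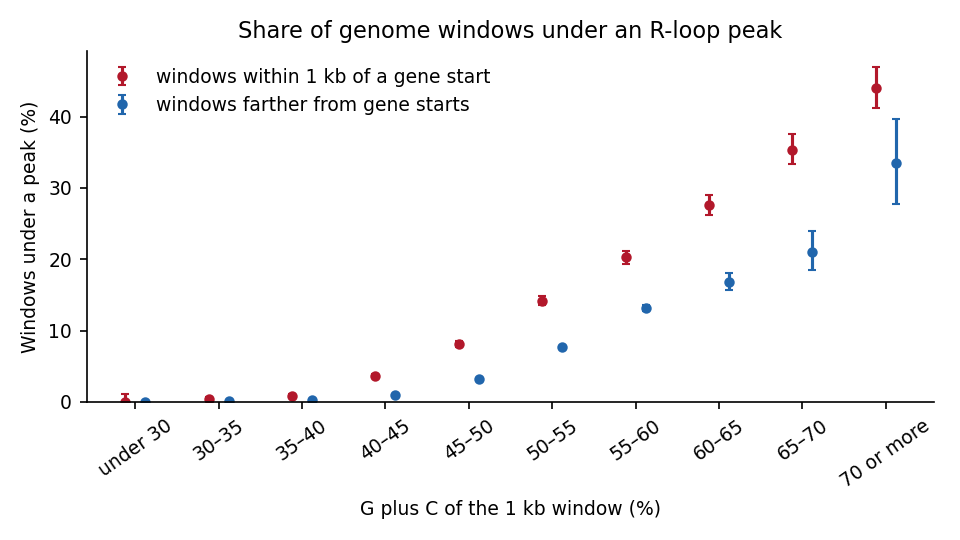
Share of 1 kb windows of the mm9 genome whose midpoint lies in an R-loop peak, in percent (vertical axis), by G plus C content of the window (horizontal axis), within 1 kb of a protein-coding gene start (red) or farther away (blue); bars are Wilson 95% intervals over windows. Both series rise with G plus C, to 44.0% near starts and 33.5% away from starts at 70% or more.

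The same held for gene starts. Of the 6502 protein-coding starts with at least 60% G plus C, 30.3% (interval 29.2 to 31.4%) lay under a peak, compared to 14.6% of starts of 50 to 60%, 2.08% of starts of 40 to 50% and 0.105% of starts under 40%. A member covered 629 (9.67%) of these GC-rich starts, and another peak covered 1340 (20.6%). The latter peaks had a median width of 3547.5 bp and a median G plus C of 54.7%, against 1578 bp and 63.9% for the members. The difference in G plus C follows from the rule that divides the 2 groups. The difference in width is not independent of the rule either, since a wider peak around a GC-rich start takes in more of the flanks, which had lower G plus C.

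Over all 22367 protein-coding genes, 757 (3.38%) had their start under a member and 11.5% under another peak, and 4.94% overlapped a member anywhere. Neural progenitor regulators, a list of transcription factors and other genes of NSPC identity, had 4 of 64 starts under a member, at Id4, Sall1, Sox21 and Zic5, and 19 under another peak. Members over Id4, an inhibitor of helix-loop-helix factors, and Sox21, an HMG-box factor, measured 2.59 and 2.62 kb. Those over Sall1 and Zic5, both zinc finger factors, measured 5.01 and 3.10 kb. In all, 12 genes of this list (18.8%) overlapped a member, and among them Emx2, Gli3, Lhx2, Otx1, Sox2, Zic1 and Zic4 did so away from their start. The Gli3 member, with its midpoint in a promoter of this Hedgehog effector, had 70.3% G plus C. Of the 30 regulators with a GC-rich start, 10 (33.3%) had it under a peak, near the 30.3% of all GC-rich starts.

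Further families were counted in the same way, without a test between them. Of 43 forkhead genes, 26 had a GC-rich start, of which 6 were under any peak. The starts of 5 forkhead genes were under another peak and those of 5 under a member, namely Foxb1, Foxc1, Foxj1, Foxo1 and Foxo3, with peaks of 1.36 kb at Foxj1, a regulator of ciliated cells, to 5.48 kb at Foxo3, a target of insulin signaling. Of 16 pluripotency genes, the starts of Klf2 and Klf4, both Krüppel-like zinc finger factors, were under a member and 0 were under another peak, and 2 of the 6 GC-rich starts were under any peak. Among 19 Wnt ligands, 14 starts were GC-rich and 2 of these were under any peak. Of all 19 starts, 1 was under a member, at Wnt7b, and 1 under another peak. Of 94 potassium channel genes, 3 starts (3.19%), at Kcna3, Kcnd3 and Kcnj4, were under a member and 4 under another peak, and 5 of the 37 GC-rich starts were under any peak. Zinc finger genes named Zfp had 12 of 365 starts (3.29%) under a member and 56 under another peak, and 40 of their 85 GC-rich starts were under any peak. The shares of both lists under a member were near the 3.38% of all genes.

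In 5 lists 0 starts were under a member. Against the 3.38% of all genes, such a count says little for lists of 13 to 46 genes, and the peaks of any kind are given beside it. Of all protein-coding genes, 14.9% had their start under a peak of any kind and 39.6% overlapped one anywhere. The 40 genes of the Hox clusters, which set positional identity along the body axis, had 10 GC-rich starts and overlapped 0 peaks of any kind. The 13 neuronal markers had 5 GC-rich starts and 0 starts under a peak, and 2 of these genes overlapped a peak. The 21 glial and progenitor markers had 7 starts under other peaks and 0 under a member, although a member of 2.82 kb lay within Notch1. Of these 21 genes, 15 overlapped a peak of any kind. The 46 keratins and the 1087 olfactory receptors had 0 starts under a peak, with 2 and 0 GC-rich starts, and 1 keratin and 4 olfactory receptors overlapped a peak. Genes of cytoplasmic ribosomal proteins showed the opposite combination, as 44 of 80 starts were under other peaks and only that of Rps13 was under a member. Of their 13 GC-rich starts, 10 were under a peak. The peak list holds no expression values, so that these groups could not be set against transcript levels.

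**Figure D5:**
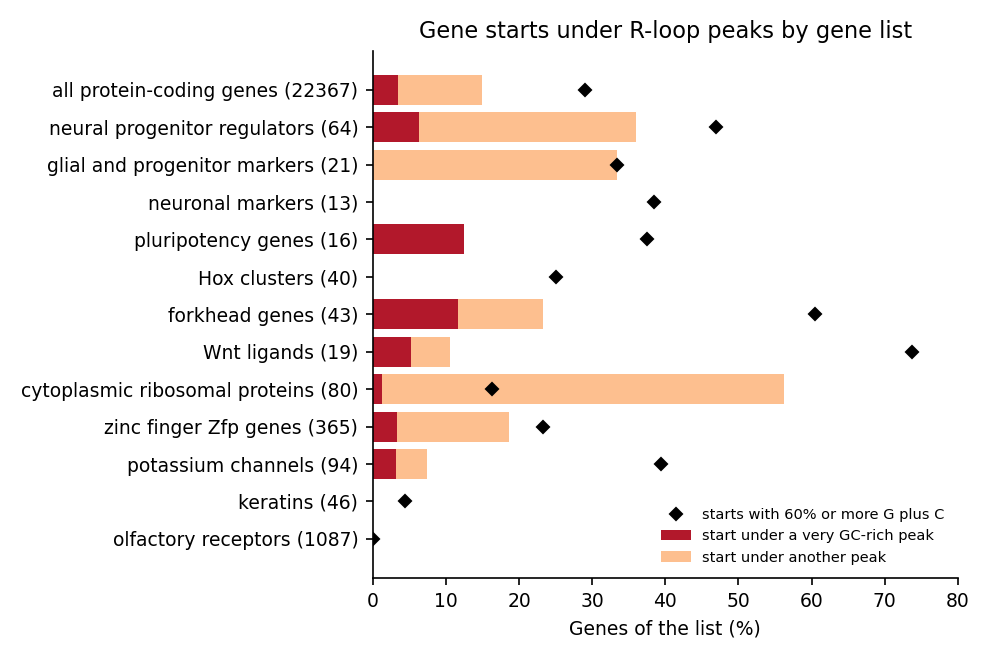
Share of genes of each list in percent (horizontal axis) whose start lies under a very GC-rich peak (red) or under another peak (orange, stacked), with diamonds for the share of starts with at least 60% G plus C; the number of genes is in parentheses. Hox clusters and neuronal markers have diamonds at 25 and 38.5% but no bar, while ribosomal protein genes have a diamond at 16.3% and 55.0% of starts under another peak.

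Of the genes that the study named for R-loops in NSPCs, members overlapped Magi2, Htt, Fgfr1 and Npas3. In Htt, the Huntington disease gene, 1 of 5 peaks was a member, with 60.9% G plus C over the start. Npas3, a long gene of a neuronal bHLH-PAS factor, held 25 peaks, of which 2 were members, one over the start (60.6%) and one in its last part (63.9%). The Magi2 member, of 64.2%, lay near the end of the longest gene model, over the start of a short model there, while the start of the longest model was under a peak of 50.8%. In Fgfr1, 2 of 9 peaks were members. No member overlapped Rpl13a, Ywhaz, Pou3f2, Pou3f3, Sox4 or Sox11. The GC-rich starts of Pou3f2 (67.8%) and Sox11 (67.5%) lay under peaks of 53.1 and 58.4% G plus C, while Pou3f3, whose start had 78.9% G plus C, overlapped 0 peaks. The study, in contrast, reports R-loops at Pou3f3 in NSPCs that reach into the neighbouring gene Pantr1. Only the annotated Pou3f3 model (chr1:42753991-42757052) was searched here, and the reason for the difference was not tested.

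Some members were tandem repeats. Each peak was compared with itself shifted by 1 to 100 bp, and a peak whose bases matched at 60% or more for its best shift was counted as a tandem repeat, a limit chosen after seeing the values. Of the members, 43 (3.87%, interval 2.89 to 5.17%) met it, against 7.54% of all peaks. The shares were 4.68% for peaks of 50 to 60%, 8.47% for peaks of 40 to 50% and 23.4% for peaks under 40%. None of the 43 contained a protein-coding start, 23 lay outside protein-coding genes, and 39 belonged to the 145 members poor in CpG without a start. In 36 the CpG ratio was under 0.2.

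Most of these repeats had unequal G and C on the 2 strands. A skew of 0.3 or more in either direction was found in 42 of the 43, compared to 21 of the other 1068 members. On chromosome 10, the peak chr10:72312369-72312930, shown above, had a skew of 0.98 on the plus strand. The best shift was a multiple of 3 bp in 30 of the repeats, and 6 bp in 12. Tandem peaks outside the members were not counted in this way, so that these counts cannot be called particular to members. A best shift can also be a multiple of the repeated unit. G-quadruplex motifs occurred in 15 of them (34.9%), against 76.4% of members with a gene start, but the repeats were narrower, with a median of 646 against 1535 bp. Per kb, the densities were 1.11 and 1.34 motifs. Of the 20 within genes of 1 strand, 8 were G-rich on the coding strand, so that the orientation of the repeat with respect to the gene was mixed.

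Restriction sites were sparse in members. None of the 5 enzymes had a site inside 67.3% of members (interval 64.51 to 70.02%), compared to 52.6% of all peaks. When sites within 500 bp of the peak were counted too, 14.9% of members had none. The enzymes cut at sequences rich in A and T, and GC-rich windows held 0.457 sites per kb against 1.85 per kb in all windows. The share without a site depended on width, and within width classes members and peaks of 50 to 60% were closer. Below 500 bp the shares were 91.4 and 86.9%, between 500 bp and 1 kb they were 89.9 and 81.7%, between 1 and 2 kb they were 66.0 and 64.4%, and between 2 and 4 kb they were 31.9 and 30.1%. The restriction fragment around the midpoint of a member had a median length of 2058 bp. For all peaks this median was 2082 bp, and for peaks of 50 to 60% it was 2322.5 bp. The median fragment of members was longer than the median member. How the fragments set the edges of these peaks was not tested.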

How the data were processed

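NSPC DRIP-seq reads were adapter trimmed (Trim Galore 0.6.6, per the submitters' processing notes), aligned to NCBI37/mm9, freed of duplicates and passed to a peak caller based on a Hidden Markov Model by the authors. The aligner and the way in which replicates were combined are not given in the sources used here. The authors deposited 1 list of peaks, whose other values are start and end positions in base pairs. The depth per sample is unknown. The input sample was not analysed here.

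Peak sequences were read from mm9, and genes were taken from GENCODE M1 on the same build (37273 genes, 22367 of them protein-coding, over 19 autosomes, X and Y). Starts counted from 1 bp of overlap. Midpoint classes followed the default limits of HOMER over all annotated transcripts. The alternatives were other limits for G plus C, width, CpG, promoters, windows and motif loops, merging of peaks closer than 1 kb, a start taken as 1-based, and autosomes alone. No test was applied, since peaks of 1 list are not replicates. Counting of bases, starts, sites and repeats was tested on simulated data. The members, the 12 gene lists and the alternatives were chosen with earlier results of these data known. Peaks and genes named in the text were the 5 members of at least 500 bp with the highest G plus C, the 5 widest, those with extreme CpG ratios or motif density, those next to the limit of 60%, list genes under a member, genes with the most members, the bins of 100 kb with the most members, extreme chromosomes and genes that the study names. The result for 1 list gene is not reported here. Calculations used Python 3.11.15, numpy 2.4.6, pandas 2.3.3 and scipy 1.17.1, and figures matplotlib 3.10.9.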

Additional observations from a re-analysis of the deposited data

How the results depend on the processing

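Of 69 alternative values, 33 stayed within the spread of the value reported (its counting interval or SD) or within 1.5 times a count. Another 36 moved beyond it and 0 reversed, although counts, widths and shares have no sign and could not reverse. For the mean skew of 0.0560 the SD over starts, 0.0916, was larger than the mean, so that staying within it says little. At limits of 55 and 65% G plus C in place of 60%, the number of members was 3203 and 395, the share over a gene start 46.9 and 65.1%, over a gene end 8.05 and 1.01%, with a CpG ratio of at least 0.6 49.1 and 95.9%, without a restriction site 58.5 and 70.9%, of windows under a peak 17.7 and 34.7% and of starts under a peak 25.60 and 35.02%; midpoints in promoters were 38.7% at 55%. Members of at least 1 kb numbered 683, with 76.1% over a start, 52.9% without a restriction site and 84.6% with a G-quadruplex motif. Shares over a start were 70.5% with the starts of all protein-coding transcripts and 77.0% within 1 kb, and shares over an end 4.68% for all annotated genes and 7.83% within 1 kb. Midpoints in promoters were 86.5% with 2 kb to each side of a start and 45.6% with promoters of protein-coding transcripts alone, chosen after seeing the data. CpG-rich members were 86.5% among those of at least 500 bp, 57.6% at a ratio of 0.75, 91.8% by the highest window of 200 bp and 85.9% without tandem repeats, also chosen after seeing the data. With sites within 500 bp counted, 14.9% had none. GC-rich windows of 500 bp and 2 kb were under a peak in 21.1 and 32.8%, and 30.8% of 1 kb windows were with any overlap. GC-rich starts under a peak were 26.04% with G plus C within 250 bp and 39.2% within 1 kb. Loops of up to 12 bases gave 84.3% of members with a motif. Without reads or replicates, depth sets an unknown limit on which GC-rich stretches were called. No paired analysis was possible because 1 list was deposited.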

Other observations

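Members were unevenly spread over chromosomes, as were all peaks. Chromosome 11 had the most members per Mb, at 0.699 (83 members), and among chromosomes with any member X had the fewest, at 0.160 (26 members), while Y had 0 members and 1 peak. All peaks had the same extremes, with 14.8 per Mb on chromosome 11 and 1.81 per Mb on X. Members were 4.73% of the peaks of chromosome 11, near the 5.02% of the whole list. X also had the highest share of members among its peaks, 8.87% (26 of 293, Wilson 95% interval 6.13 to 12.7%), and chromosome 15 the lowest of those with a member, 3.70% (36 of 974). Of the 388 GC-rich windows of X, 13.9% were under a peak, compared to 26.8% over the genome.

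The bins of 100 kb with the most members held 3 each. In chr17:8100001-8200000 all 3 were tandem repeats with a best shift of 6 bp, G-rich on the minus strand, with skews of -0.64, -0.63 and -0.69 on the plus strand. In chr6:124900001-125000000 they were adjacent peaks at C530028O21Rik, of 724, 200 and 155 bp, separated by 1 base each. By gene, the most members lay in Gm20388 (8 members) and Fgfr2 (4 members), whose annotated models span 4435 and 3009 kb, followed by C530028O21Rik and Mdga1 with 3 each. Motif density came next after the 2 repeats shown in the report in the promoter of Fer, a tyrosine kinase gene, with 7.52 G-quadruplex motifs per kb.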
